A study of Mus musculus with 7 samples.

Results

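The receptors for leukotriene B4, the cysteinyl leukotrienes and the prostaglandins were examined in RNA of eosinophils sorted from mouse muscle. The set held 9 genes, taken by symbol from a table of 24421 genes, and all 9 had a row. They were Ltb4r1, Ltb4r2, Cysltr1, Cysltr2, Ptgdr2, Ptger2, Ptger3, Ptger4 and Ptgir. There were 3 libraries from wild-type (WT) mice and 4 from mice with the genotype IL5-Tg, named for the cytokine IL-5, and all cells came from muscle 3 days after ntx, a term that the labels leave unexplained. Cells of both genotypes were sorted from digested muscle as CD45-positive, SiglecF-positive and negative for NK1, Ly6G and CD3e, with a CD11b gate that the labels write as CD11bing. The labels give no strain, age or sex, no promoter for the transgene and no cells that express it, and they do not say which libraries are separate animals, so the p-values below reflect library-to-library spread, which may be technical. The series' title names mdx mice, a model of muscular dystrophy, but the sample labels do not.

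Leukotrienes and prostaglandins are short-lived lipids made from arachidonic acid, by lipoxygenase and cyclooxygenase enzymes respectively, and they act on neighbouring cells through receptors coupled to G proteins. Leukotriene B4 attracts granulocytes, the cysteinyl leukotrienes constrict airways and make vessels leak, and prostaglandin D2 attracts eosinophils and type 2 lymphocytes. Prostaglandin E2 and prostacyclin raise cyclic AMP in leukocytes through Ptger2, Ptger4 and Ptgir, which tends to restrain them.

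The receptor that differed, Ltb4r2, lies beside Ltb4r1, which did not pass the test, so the sequence and position of this pair are given first. Ltb4r2 lies on chromosome 14 at 55761428 to 55765138 and Ltb4r1 at 55765962 to 55768494, both on the plus strand (mm10, GENCODE vM21). The end of Ltb4r2 and the start of Ltb4r1 are 824 bases apart. Each coding transcript has 2 exons and carries its coding sequence in 1 of them. Ltb4r2 has 2 annotated transcripts, a coding one of 1439 bases and a retained-intron one of 3703 bases. Over 1016 aligned columns the coding sequences were 60.3% identical. The stretch around their longest exact match is shown because it is where reads could most easily be taken for each other. Bases 155 to 228 of the Ltb4r1 and 161 to 234 of the Ltb4r2 coding sequence are printed, with the shared run of 14 bases in capitals.
Ltb4r1: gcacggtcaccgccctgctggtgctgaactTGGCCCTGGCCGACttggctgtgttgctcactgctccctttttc
Ltb4r2: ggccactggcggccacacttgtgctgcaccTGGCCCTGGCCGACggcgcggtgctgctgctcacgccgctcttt
Reads were 42 bases long, so no read inside the coding sequences fits both genes exactly. Over all annotated transcripts, 0 of 1353 different 42-base stretches of Ltb4r1 and 40 of 3710 of Ltb4r2, or 1.08%, also occurred in transcripts of another gene on either strand.

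Upstream of Ltb4r2, on the other strand, lies Cideb, whose start is 2970 bases from that of Ltb4r2. The 250 bases before the starts of Ltb4r1 and Cideb are shown because these are the nearest annotated starts on either side of Ltb4r2. They come from RefSeq's annotation of GRCm38.p6, at chr14:55765712-55765961 on the plus strand and chr14:55758425-55758674 on the minus strand.
Ltb4r1: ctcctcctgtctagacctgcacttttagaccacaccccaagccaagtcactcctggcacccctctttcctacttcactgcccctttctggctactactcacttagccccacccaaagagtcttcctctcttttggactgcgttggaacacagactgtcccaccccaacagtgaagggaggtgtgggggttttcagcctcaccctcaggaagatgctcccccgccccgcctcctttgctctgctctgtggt
Cideb: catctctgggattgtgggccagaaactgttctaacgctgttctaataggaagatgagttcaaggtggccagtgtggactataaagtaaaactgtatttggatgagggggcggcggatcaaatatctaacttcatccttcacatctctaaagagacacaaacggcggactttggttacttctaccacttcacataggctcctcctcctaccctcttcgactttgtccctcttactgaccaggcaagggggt
No base is in capitals because neither motif searched for was found. The first was TTCNNNGAA, the palindromic core bound by STAT factors, which include the one downstream of IL-5. The other was AGATAA, recognised by the zinc-finger factors that specify eosinophils, and each was searched on both strands. Of the 9 receptor genes 7 matched the promoter table, all but Ltb4r2 and Cysltr1. With Cideb, 0 of 8 windows held either motif, against 7.04% and 9.97% of 32536 different windows of 250 bases in the table. This says only that these letters do not occur in these windows.

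Total counts ranged from 11581365 to 20231509 reads per library, of which 9665093 to 17447106 were assigned to genes. Levels are given as CPM (counts divided by scaled library size, the field's usual depth-corrected unit). Eosinophil markers were present in every library, at a summed 1207 to 2518 CPM in WT and 1844 to 3923 CPM in IL5-Tg (6 of 6 genes, 0 of them without reads in any library). Siglecf itself was at 251 to 648 CPM in WT and 470 to 857 CPM in IL5-Tg. The sum hides opposite directions, with 4 of the 6 markers higher on average in IL5-Tg. Prg2 averaged 120 CPM across WT and 815 CPM across IL5-Tg libraries, and it alone of the 6 passed the genotype test below. Il5ra averaged 130 and 66.7 CPM and did not pass. Counts of lowly expressed genes clustered at different values, with a most common low count of 5, 8 and 12 reads in WT replicates 1, 2 and 3 against 1, 1, 1 and 4 in IL5-Tg replicates 1, 2, 3 and 4. A difference in level can reflect fewer expressing cells or less RNA per cell, which bulk libraries cannot tell apart.

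The comparison asked how receptor RNA differed between eosinophils of IL5-Tg and WT muscle. Ltb4r2 was higher in IL5-Tg, and no other receptor passed the test. Of the 9 genes 7 had enough reads to be tested, 1 rose, 0 fell and 6 did not pass, at a Benjamini-Hochberg adjusted p under 0.05 in edgeR's quasi-likelihood test over all 12428 tested genes. Over all tested genes 0.41% passed, 0.338% higher and 0.0724% lower. The median log2 fold change of the 7 tested receptors was 0.43, beside 0.03 over all tested genes. Of the 7, 5 were positive, as were 6472 of the 12428 tested genes. Cysltr2 and Ptger3 had too few reads.

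**Figure D1:**
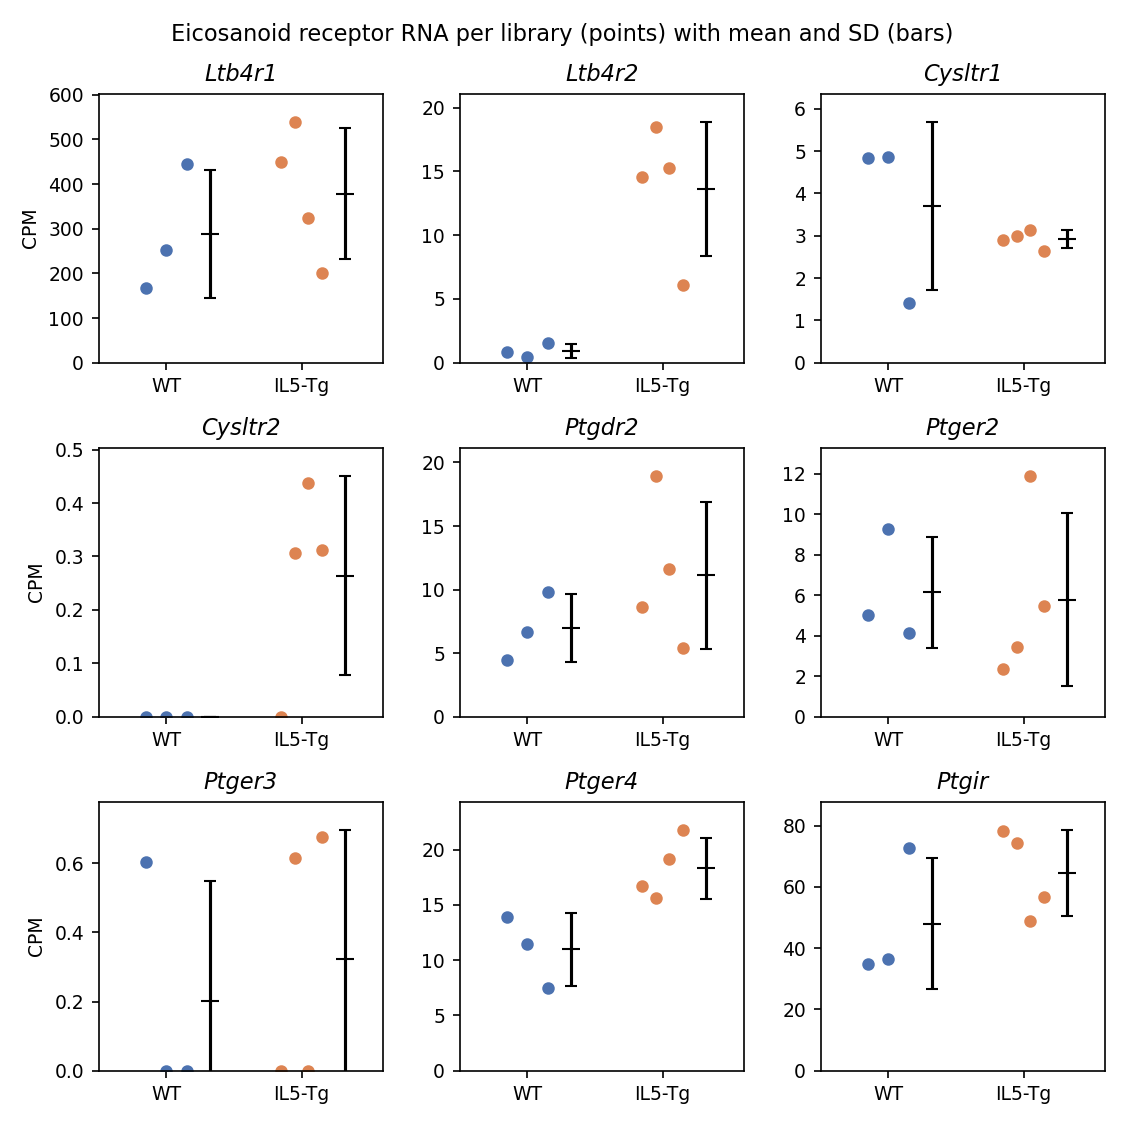
CPM of each receptor gene in the 3 WT (blue) and 4 IL5-Tg (orange) libraries on linear axes that start at 0, with the group mean and SD as black bars, cut off at 0 where they reach below it. Every IL5-Tg library lies above every WT library for Ltb4r2 and Ptger4, and the groups overlap for the other genes.

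Ltb4r2 encodes BLT2, the low-affinity receptor of leukotriene B4, which also responds to a hydroxy fatty acid formed along with thromboxane. WT replicates 1, 2 and 3 held 0.846, 0.422 and 1.51 CPM of it, from 14, 4 and 16 reads. In IL5-Tg replicates 1, 2, 3 and 4 it was at 14.5, 18.4, 15.2 and 6.13 CPM, from 155, 240, 209 and 118 reads. The groups did not overlap, the lowest IL5-Tg value being that of replicate 4 and the highest WT value that of replicate 3.

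Ltb4r2 averaged 0.927 ± 0.549 CPM (SD, n = 3) across WT and 13.6 ± 5.26 CPM (SD, n = 4) across IL5-Tg libraries. The log2 fold change was 3.86 ± 0.64 (SE), with a 95% interval from 2.44 to 5.27 and an edgeR adjusted p of 0.0372. The size of this difference held over 15 alternative settings, from 3.56 to 4.38, but the call did not. It was lost without WT replicate 1 (edgeR adjusted p = 0.164), WT replicate 2 (0.0578) and IL5-Tg replicates 1, 2 and 3 (0.165, 0.184 and 0.148), and with limma-voom and sample quality weights together (limma adjusted p = 0.466). By DESeq2, which called 1.57% of the genes it tested, the adjusted p was 8.0e-08.

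The WT reads of Ltb4r2 amounted to 2.8, 0.50 and 1.33 times the most common low count of their library, so the WT level rests on little more than the smallest counts seen there. A floor of 3 such counts would be 0.906, 2.53 and 3.40 CPM in WT replicates 1, 2 and 3, and each IL5-Tg library was above the highest of these. With all counts divided by the most common low count of their library, the log2 fold change of Ltb4r2 was 3.57 (edgeR adjusted p = 0.0176).

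Ltb4r1 encodes BLT1, the high-affinity leukotriene B4 receptor that guides neutrophils, eosinophils and effector T cells. It was the most abundant of the receptors, with 166, 252 and 445 CPM across WT replicates 1 to 3. In the IL5-Tg libraries it was at 450, 538, 323 and 202 CPM. The lowest and highest values of the groups interleave, and Ltb4r1 did not pass (log2 fold change 0.40, 95% interval -0.50 to 1.29, edgeR adjusted p = 0.879).

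The pair of leukotriene B4 receptors therefore stood in a different ratio in each genotype, a measure that does not depend on library scaling. There were 0.509, 0.168 and 0.340 Ltb4r2 reads per 100 Ltb4r1 reads in WT replicates 1, 2 and 3. In IL5-Tg replicates 1, 2, 3 and 4 there were 3.23, 3.43, 4.71 and 3.03. This ratio was chosen with the difference in Ltb4r2 known and is given as a description.

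**Figure D2:**
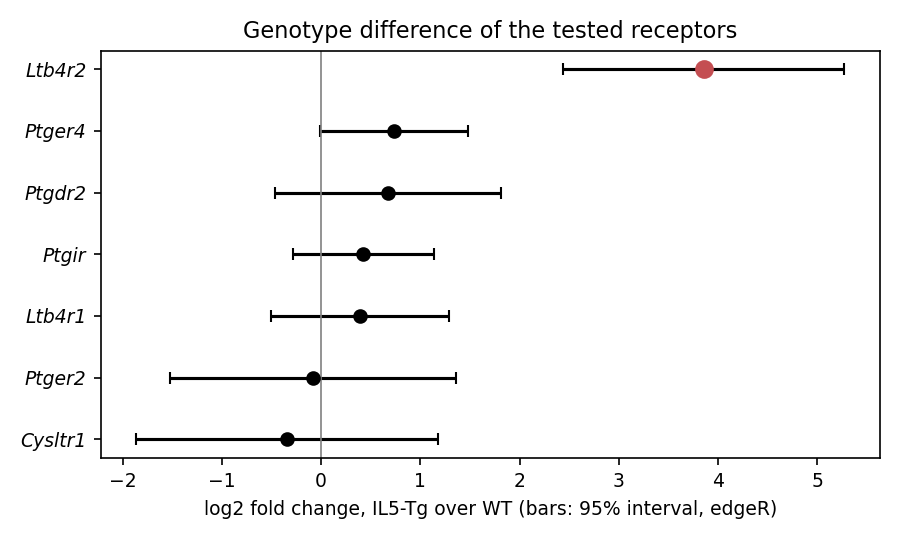
Log2 fold change of IL5-Tg over WT (x axis) for the 7 tested receptors (y axis), with the 95% interval of the edgeR fit as bars and the gene that passed in red. Only the interval of Ltb4r2, from 2.44 to 5.27, excludes 0, and that of Ptger4 starts at -0.01.

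Of the 6 genes listed around the pair, only Cideb, which belongs to a family of lipid droplet proteins, had groups that did not overlap. Over all tested genes 9.36% did not overlap in either direction, so 1 of 6 is near that share. The 3 WT libraries held 0.544, 1.16 and 7.28 CPM of Cideb, and the 4 IL5-Tg libraries 11.4, 15.6, 12.5 and 10.4 CPM. WT replicate 3 lay closer to the IL5-Tg libraries than to the other WT libraries. Cideb did not pass (log2 fold change 2.06 ± 0.79 SE, edgeR adjusted p = 0.465). Without WT replicate 3 its log2 fold change was 3.93 (edgeR adjusted p = 0.00360), so the call depended on that library. In that fit 97 of all tested genes passed, against 51 in the main test.

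None of the 6 genes listed around the pair passed by edgeR or DESeq2, and 1, Cideb, had an unadjusted p under 0.05, as had 9.04% of all tested genes. Ripk3, a kinase of necroptosis farther downstream, averaged 14.7 ± 7.72 CPM (SD, n = 3) across WT and 26.0 ± 8.51 CPM (SD, n = 4) across IL5-Tg libraries (log2 fold change 0.83, edgeR adjusted p = 0.650). All 6 had a positive log2 fold change, with a median of 0.57. Over all tested genes 6472 of 12428 were positive, with a median of 0.03. Ltb4r2 shares no annotated exon with Cideb or Ltb4r1.

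**Figure D3:**
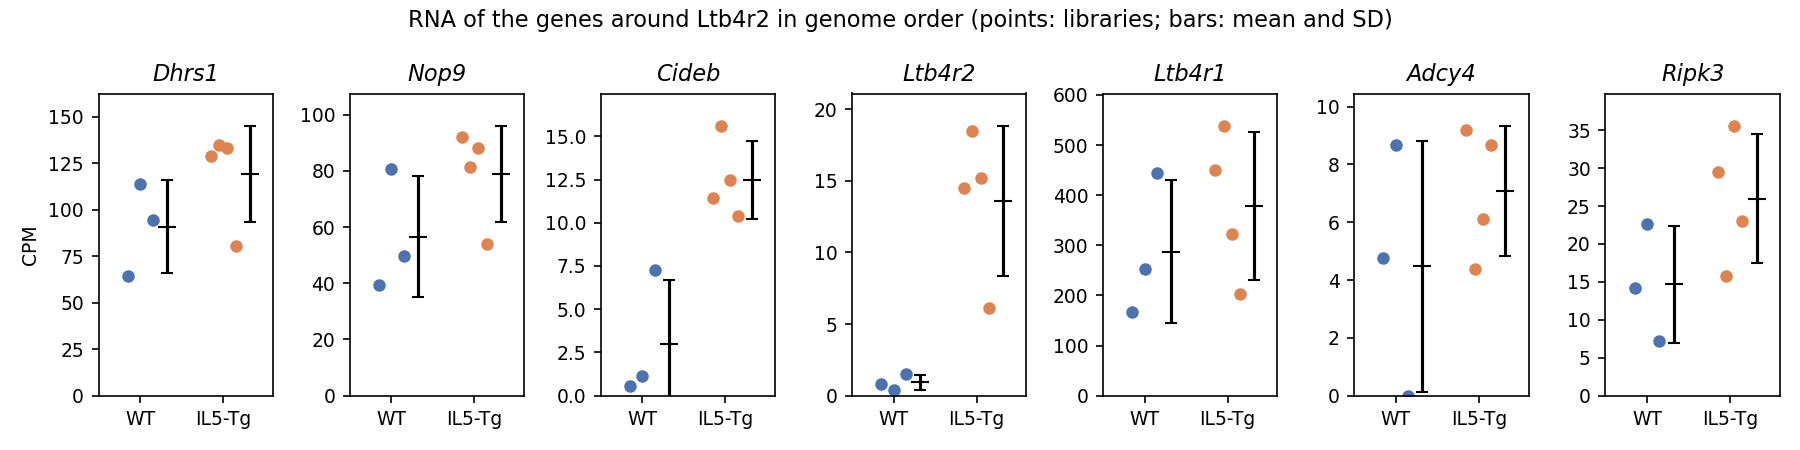
CPM of 7 genes in their order along chromosome 14 in the WT (blue) and IL5-Tg (orange) libraries on linear axes that start at 0, with the group mean and SD as black bars, cut off at 0. Cideb and Ltb4r2 do not overlap between genotypes, while Dhrs1, Nop9, Ltb4r1, Adcy4 and Ripk3 do.

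The cysteinyl leukotriene receptors were at low levels, and Cysltr2 was near the limit of detection. Cysltr1, the main target of the leukotriene antagonists used in asthma, measured 4.83, 4.86 and 1.42 CPM across WT replicates 1 to 3 and 2.90, 3.00, 3.13 and 2.65 CPM in the IL5-Tg libraries. The WT values lie on both sides of all IL5-Tg values (log2 fold change -0.34, 95% interval -1.86 to 1.18, edgeR adjusted p = 0.940). Its reads were 16, 5.75 and 1.25 times the most common low count in WT replicates 1, 2 and 3. In IL5-Tg replicates 1, 2, 3 and 4 they were 31, 39, 43 and 12.75 times that count. Cysltr2, the second receptor of these lipids, had 0 reads in all 3 WT libraries and in IL5-Tg replicate 1, while the remaining IL5-Tg libraries held 4, 6 and 6. Pooled over its libraries, IL5-Tg stood at 0.282 CPM, which is 3.45 times a floor of 3 reads for the WT group. It is 0.287 times a floor of 3 counts of 12 reads, 12 being the most common low count of WT replicate 3. By this second floor no difference was detectable. Cysltr2 was not tested, and without a count filter its log2 fold change was 4.88 (95% interval -0.33 to 10.1, edgeR adjusted p = 0.621).

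Among the prostaglandin receptors, Ptgir and Ptger4 had the highest CPM, a scale that does not correct for gene length. Ptgir, the prostacyclin receptor, measured 34.9, 36.4 and 72.9 CPM across WT replicates 1 to 3 and 78.2, 74.2, 49.0 and 56.7 CPM in the IL5-Tg libraries. WT replicate 3 fell among the IL5-Tg values, and Ptgir did not pass (log2 fold change 0.43, 95% interval -0.29 to 1.14, edgeR adjusted p = 0.801). Ptger4, the EP4 receptor of prostaglandin E2, was at 14.0, 11.5 and 7.47 CPM in WT and at 16.7, 15.6, 19.2 and 21.8 CPM in IL5-Tg libraries.

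The groups of Ptger4 did not overlap. It averaged 11.0 ± 3.28 CPM (SD, n = 3) across WT and 18.3 ± 2.74 CPM (SD, n = 4) across IL5-Tg libraries, and it did not pass (log2 fold change 0.74, 95% interval -0.01 to 1.48, edgeR adjusted p = 0.561). With Ltb4r2, 2 of the 7 tested receptors were higher in every IL5-Tg library than in every WT library, where 4.76% of all tested genes were. None was lower throughout, against 4.6% of all tested genes, so that 9.36% of all tested genes did not overlap in either direction. Ptger2, the EP2 receptor, was at 5.01, 9.29 and 4.16 CPM in WT and 2.34, 3.46, 11.9 and 5.45 CPM in IL5-Tg libraries. These values overlap widely (log2 fold change -0.09, 95% interval -1.53 to 1.35, edgeR adjusted p = 0.984), and leaving out single libraries moved the log2 fold change between -0.71 and 0.36, without a call.

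Ptger3, the EP3 receptor, which lowers cyclic AMP, was detected in 3 libraries only. WT replicate 1 had 10 reads, IL5-Tg replicates 2 and 4 had 8 and 13 reads, and the other 4 libraries had 0. By a floor of 3 of a library's most common low counts, this allows up to 2.53 and 3.40 CPM in WT replicates 2 and 3 and 0.281 and 0.219 CPM in IL5-Tg replicates 1 and 3. Ptger3 was not tested, and without a count filter its log2 fold change was 0.62 (95% interval -3.81 to 5.05, edgeR adjusted p = 0.947). Ptgdr2 encodes CRTH2, the receptor through which prostaglandin D2 attracts eosinophils. It was at 4.47, 6.65 and 9.83 CPM in WT and 8.62, 18.9, 11.6 and 5.40 CPM in IL5-Tg libraries. IL5-Tg replicate 2 was highest, the other values interleave, and Ptgdr2 did not pass (log2 fold change 0.67, 95% interval -0.47 to 1.81, edgeR adjusted p = 0.806).

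The other receptor genes are spread over the genome (mm10, GENCODE vM21). Cysltr1 lies on chromosome X at 106574346 to 106603679 and Cysltr2 on chromosome 14 at 73025603 to 73049114, both on the minus strand. Ptger2 lies on chromosome 14 at 44988195 to 45003820, Ptger3 on chromosome 3 at 157566892 to 157645888, Ptgdr2 on chromosome 19 at 10937160 to 10942511 and Ptgir on chromosome 7 at 16906490 to 16910905, all on the plus strand, and Ptger4 on chromosome 15 at 5206661 to 5244187 on the minus strand. Some of these levels may include reads of overlapping genes, since the strand setting of the counting is not given in the sources used here. Exons of Ptgdr2 share 1031 bases with Ccdc86 on the other strand, and 38% of the 42-base stretches of Ptgdr2 occur in Ccdc86 transcripts. Ccdc86 was at 20.0 to 34.1 CPM in WT and 22.8 to 47.6 CPM in IL5-Tg libraries. For Ptger4, 14.7% of stretches occur in Ttc33 or Gm15937 transcripts from the other strand, and for Ptger2 4.04% in Gm17173 or Gm49364. Exons of Ptger4 share 1015 bases with Gm15937, which had no row of counts, and 82 bases with Ttc33. Ttc33 was at 5.70 to 11.4 CPM in WT and 10.7 to 22.2 CPM in IL5-Tg. The part of these genes in the receptor levels was not tested.

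Compared per length, Ltb4r1 made up most of the receptor RNA in both genotypes. As CPM per kilobase of the principal transcript it averaged 206 ± 102 (SD, n = 3) across WT and 271 ± 105 (SD, n = 4) across IL5-Tg libraries, or 89.7% and 86.8% of the summed level of the 9 genes. Ptgir followed at 14.5 ± 6.51 and 19.5 ± 4.22 CPM per kilobase. In WT the order continued with Ptger4 (3.36 ± 1.0), Ptgdr2 (2.64 ± 1.02), Ptger2 (1.67 ± 0.747), Cysltr1 (0.720 ± 0.385) and Ltb4r2 (0.644 ± 0.382 CPM per kilobase). Each of these neighbours differed by no more than the sum of their SDs.

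In IL5-Tg libraries Ltb4r2 came next after Ptgir, at 9.44 ± 3.65 CPM per kilobase (SD, n = 4), or 3.02% of the summed level against 0.280% in WT. After it came Ptger4 (5.61 ± 0.841), Ptgdr2 (4.21 ± 2.18), Ptger2 (1.57 ± 1.16) and Cysltr1 (0.568 ± 0.0398 CPM per kilobase). Ltb4r2 and Ptger4 did not differ beyond the sum of their SDs. Per kilobase of all annotated exons, which count the retained-intron transcript, Ltb4r2 was at 3.66 in IL5-Tg, below Ptgdr2 at 4.21, and Ptgdr2 stood above Ptger4 in both genotypes (2.64 against 1.65 in WT and 4.21 against 2.75 in IL5-Tg). The summed share of receptors known to couple to Gs (Ptger2, Ptger4 and Ptgir) was 9.14% ± 2.26 (SD, n = 3) across WT and 9.40% ± 3.39 (SD, n = 4) across IL5-Tg libraries.

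Levels of Ltb4r2 across the 7 libraries were most like those of Lipg, Prg2 and Lrp12, with Pearson correlations of log2(CPM + 1) of 0.997, 0.991 and 0.990. Prg2 is the major basic protein of eosinophil granules, Lipg is an endothelial lipase and Lrp12 a member of the lipoprotein receptor family. Prg2 and Lrp12 passed the genotype test and Lipg did not (log2 fold change 4.58, edgeR adjusted p = 0.103). Levels of Ltb4r1 were most like those of Ptpn1, Vasp and Spi1, at 0.994, 0.993 and 0.993, and none of these 3 passed (edgeR adjusted p = 0.907, 0.907 and 0.926). These are descriptions over libraries that share genotype and depth.

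The other genes of the pathway mostly did not pass. Of 12 tested prostaglandin enzymes and transporters 1 rose, Ptgs1, the constitutive cyclooxygenase, from 15.9, 29.5 and 22.3 CPM in the WT libraries to 212, 260, 155 and 133 CPM in the IL5-Tg libraries (edgeR adjusted p = 0.00402, log2 fold change 2.73 to 3.34 over 16 alternatives, all passing). Ptgs1 makes the precursor of every prostaglandin that the receptors above bind. The other 11 did not pass, where 0.41% of all tested genes passed. Of the 12, 2 had an unadjusted p under 0.05, Ptgs1 and Ptges3, where 9.04% of all tested genes had. Ptges3 was lower without overlap, averaging 60.9 CPM across WT and 29.9 CPM across IL5-Tg libraries (log2 fold change -1.03, edgeR adjusted p = 0.239). The median log2 fold change of the list was 0.53.

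None of the 13 tested leukotriene enzymes and transporters passed by edgeR or DESeq2, 1 of them had an unadjusted p under 0.05 (9.04% of all tested genes had), and the median log2 fold change was 0.33. Alox5, the lipoxygenase that starts leukotriene synthesis, was at 532, 732 and 1034 CPM in WT and 1476, 1924, 1168 and 864 CPM in IL5-Tg libraries. Its groups overlap through IL5-Tg replicate 4 alone (log2 fold change 0.83, edgeR adjusted p = 0.513). Mgst2, which can make leukotriene C4, had reads in 1 of 3 WT libraries, at 1.87 CPM, and was at 1.89 to 4.07 CPM in IL5-Tg libraries (edgeR adjusted p = 0.746).

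Of 7 tested further receptors of lipid mediators, 0 passed by edgeR, 2 had an unadjusted p under 0.05, where 9.04% of all tested genes had, and 1 passed by DESeq2, with a median log2 fold change of 0.44. The smallest p-values belonged to the formyl peptide receptor genes. Fpr2, which also binds lipoxin, was at 17.9, 8.24 and 3.50 CPM in WT and 1.78, 2.61, 1.02 and 1.87 CPM in IL5-Tg libraries, without overlap (log2 fold change -2.44, edgeR adjusted p = 0.231). Without WT replicate 3 Fpr2 passed, at -2.81 (edgeR adjusted p = 0.0232). Fpr1 was at 13.1, 3.27 and 0.756 CPM in WT and 0.260 to 1.46 CPM in IL5-Tg libraries (edgeR adjusted p = 0.389).

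None of 21 tested genes of signalling below the receptors passed by edgeR, 1 had an unadjusted p under 0.05, against 9.04% of all tested genes, 1 passed by DESeq2, and the median log2 fold change was -0.05. That gene was Creb1, a transcription factor activated by cyclic AMP, at 67.5, 56.6 and 102 CPM in WT and 24.5, 29.7, 27.8 and 41.7 CPM in IL5-Tg libraries. The groups did not overlap (log2 fold change -1.28, edgeR adjusted p = 0.133, DESeq2 adjusted p = 0.0308). Gna15, a G protein subunit of blood cells, averaged 75.4 ± 29.1 CPM (SD, n = 3) across WT and 111 ± 22.5 CPM (SD, n = 4) across IL5-Tg libraries (edgeR adjusted p = 0.670).

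Markers of other cells, several of which also express these receptors, were present and differed between libraries. Neutrophil markers (9 of 10 genes in the table) summed to 10238 to 13812 CPM in WT and 3328 to 5930 CPM in IL5-Tg libraries. Most of that sum was Retnlg, which passed as lower, with means of 9663 and 3235 CPM (edgeR adjusted p = 0.0416). Among the 8 tested neutrophil genes the log2 fold changes centred on -1.36 (median), and 2 were positive. S100a8 averaged 74.8 CPM across WT and 8.81 CPM across IL5-Tg libraries, S100a9 73.2 and 7.11 CPM, and Mmp9 2491 and 1130 CPM. These 3 overlapped between groups and did not pass by edgeR, while DESeq2 called S100a8 and S100a9. Ngp of the same list rose, averaging 0.121 CPM across WT and 28.3 CPM across IL5-Tg libraries (edgeR adjusted p = 0.00311, log2 fold change 7.47). Markers of mast cells and basophils (10 of 10, with 7 at 0 in at least 1 library) summed to 238 to 538 CPM in WT and 133 to 143 CPM in IL5-Tg. Hdc made up most of the WT sum and passed as lower, at 134 to 391 CPM in WT and 37.5 to 66.9 CPM in IL5-Tg (edgeR adjusted p = 0.0236). Of the 7 tested genes of this list 5 were lower without overlap, against 4.6% of all tested genes. Mcpt4 was 1 of them, averaging 26.9 and 3.97 CPM. The median log2 fold change was -2.29, and only that of Gata2 was positive. Gata2 was at 14.3 to 35.3 CPM in WT and 56.3 to 75.0 CPM in IL5-Tg, without overlap (edgeR adjusted p = 0.126). Macrophage and monocyte markers (10 of 10) summed to 3684 to 5298 and 4727 to 5855 CPM, and dendritic cell markers (5 of 5) to 296 to 982 and 461 to 1008 CPM. In WT replicate 3 Adgre1 made up much of the macrophage and monocyte sum, at 2459 CPM. C1qa was at 68.4 CPM there and at 373 and 674 CPM in the other WT libraries. C1qb, C1qc, Cd68, Mrc1 and Mertk were also lowest there among the WT libraries, while Adgre1, Csf1r, Fcgr1 and Ccr2 were not. Fibroblast markers (6 of 6) were at 12.8 CPM in WT replicate 3, 2706 and 2911 CPM in the other WT libraries and 1764 to 4301 CPM in IL5-Tg libraries.

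Muscle fibre markers (5 of 5) summed to 42.4 to 230 CPM in WT and 268 to 834 CPM in IL5-Tg, endothelial markers (4 of 4) to 150 to 169 and 113 to 212 CPM, and T cell, NK and innate lymphoid markers (6 of 6) to 3.69 to 17.5 and 14.5 to 26.2 CPM. No list had a marker at 0 in every library. Without WT replicate 3, the library with the fewest fibroblast reads, the log2 fold change of Ltb4r2 was 4.38 (edgeR adjusted p = 0.00473). The part of neutrophil, muscle or other cells' RNA in the receptor levels was not tested.

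**Figure D4:**
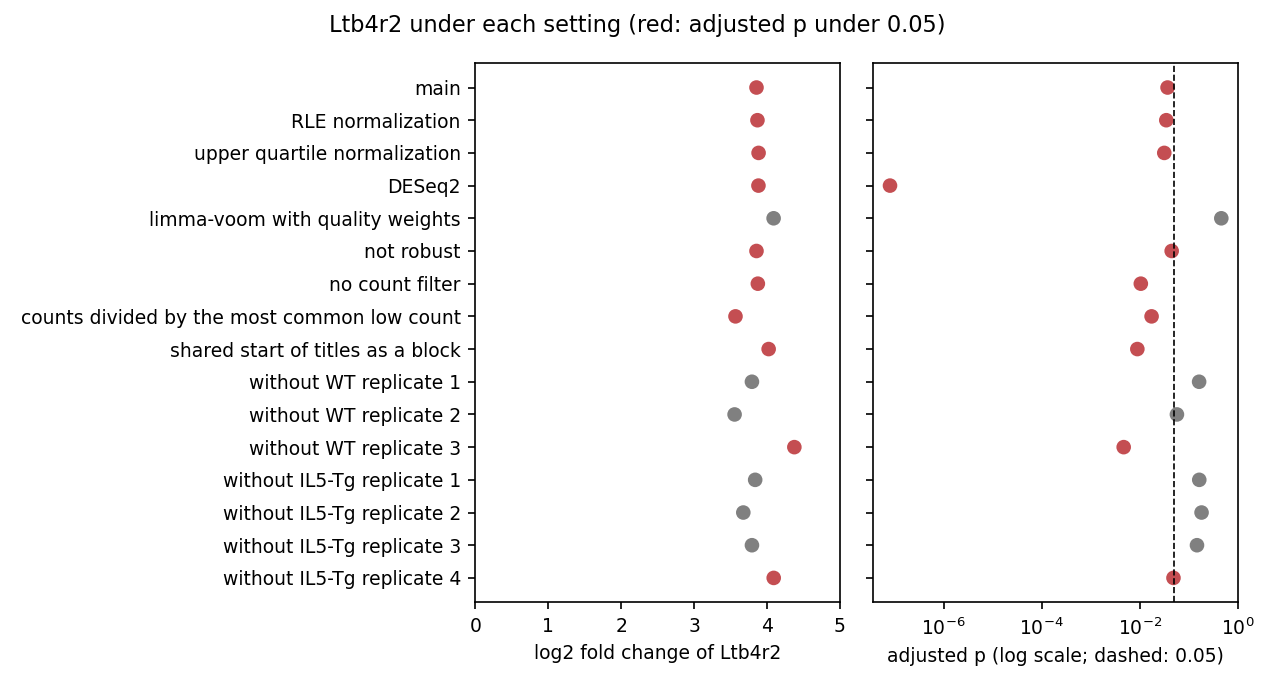
Log2 fold change of Ltb4r2 (left, linear axis from 0) and its adjusted p (right, log axis, dashed line at 0.05) under the main test and each of 15 alternative settings, red where it passed. The fold change stays between 3.56 and 4.38, while the adjusted p lies on both sides of the line.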

How the data were processed

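The authors deposited a table of raw read counts per gene symbol, 1 column per library, with no normalization, as its whole numbers and differing totals show. Stranded mRNA libraries were sequenced as paired 42-base reads, per the labels' protocols. bcl2fastq 2.20, Bowtie and STAR were used with mm10, per the submitters' processing notes; what each tool did, the counting program, its annotation and its use of strand were each not given in the sources used here. Rows of reads in no feature (9.15% to 18.2%) and of ambiguous reads (0.750% to 0.943%) stayed out of library sizes and tests. Replicate numbers follow accession order and pair nothing.

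Counts were tested with edgeR 4.0.16 in R 4.3.3 (TMM, filterByExpr, robust quasi-likelihood F test, genotype as the only term, all 7 libraries), with p-values adjusted over 12428 genes. Intervals of fold changes use the SE from the F statistic, and floors cover counting error only. On simulated counts for 12009 genes the procedure recovered 2% of genes changed 2-fold, 56% of those changed 4-fold and 76% of those changed 8-fold or 16-fold, and 6 of its 111 calls were false. The common biological coefficient of variation was 52.5%. Alternatives were RLE and upper-quartile scaling, DESeq2 1.42.0, limma-voom with sample quality weights (limma 3.58.1), other count filters, no robust estimation, division by the most common low count, blocking on the shared start of titles, and omitting libraries 1 at a time. The most common low count is the value up to 50 around which a window of 5 counts holds most genes per count. Transcript lengths and positions are from GENCODE vM21, and coding sequences were aligned with Biopython 1.88.

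Receptors and lists were chosen with earlier results of these data known. Named genes are all receptors, every called gene of each other pathway list or else the 2 with the smallest p, and the 3 genes most correlated with each called receptor and with the most abundant one. Ptges3 falls outside this rule and is named for its unadjusted p.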

Additional observations from a re-analysis of the deposited data

Results flagged for a closer look

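Of the IL5-Tg groups of 18 named genes, 1 had a library far from the others. Fpr1 was at 1.46 CPM in IL5-Tg replicate 3, and the next highest IL5-Tg value was 0.461 CPM. Its distance from the next value was 0.832 of the whole range of the 4 libraries, above Dixon's 95% critical value, which chance passes in about 1 of 20 groups.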

How the results depend on the processing

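The receptor count of 1, Ltb4r2, was the same under RLE and upper-quartile scaling, DESeq2, estimation without robustness, no count filter, division by the most common low count and the titles' shared start as a block. It was 0 with limma-voom and sample quality weights, which change the test and the weighting at once, and 0 with a mean CPM of at least 10, where Ltb4r2 was not among the genes tested. Leaving out each library gave 0 to 1. The cause of the losses was not tested. Each omission also leaves fewer samples. With WT replicate 3 omitted the call stayed (edgeR adjusted p = 0.00473), as it did when IL5-Tg replicate 4 was omitted (0.0492). No other tested receptor passed under any of these settings, and the log2 fold changes of Ltb4r1, Ptgdr2, Ptger4 and Ptgir stayed positive, and that of Cysltr1 negative. Over all genes 51 passed, against 224 by DESeq2, 32 by limma-voom with quality weights, 99 after division by the most common low count and 16 to 97 without single libraries. Cideb passed with the title block (edgeR adjusted p = 0.0145) and without WT replicate 3. WT replicate 3 shares its title start with no other library, and IL5-Tg replicates 1 and 2 share theirs only with each other. The block fit therefore takes its genotype difference only from WT replicates 1 and 2 and IL5-Tg replicates 3 and 4. No paired analysis was possible because the labels number no replicates and name no pairs. A block on the shared start of titles, whose meaning the labels do not state, could be fitted, with Ltb4r2 at 4.02 (edgeR adjusted p = 0.00899). A 2-fold change is mostly below what 3 and 4 libraries detect here, and Cysltr2 and Ptger3 are limited by their few reads.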
